A study of Mus musculus with 7 samples.

Results

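The genes described here were 10 genes of the Prader-Willi and Angelman imprinted region of mouse chromosome 7 and its flank, namely *Atp10a*, *Ube3a*, *Snhg14*, *Snrpn*, *Snurf*, *Ndn*, *Magel2*, *Mkrn3*, *Peg12* and *Otud7a* in map order. They were taken by symbol from a list of genes, and all 10 were found among the 55335 annotated genes of the count files. The 4 wild-type (WT) samples were compared with the 3 *Smchd1*-null samples to ask how far along the region the rise of *Ndn*, *Mkrn3* and *Peg12* extended.

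All 7 samples were neural stem cells (NSCs), dividing precursors of the brain, of the FVB/N mouse strain, kept in medium with EGF and bFGF. The WT samples carried the wild-type allele of *Smchd1* and the null samples the MommeD1 allele, Smchd1MommeD1. Polyadenylated RNA was sequenced as unamplified cDNA, in long nanopore reads, in 2 batches that differed in the library kit. WT replicate 2 and null replicates 1 and 2 were in batch 1, WT replicates 3 and 4 and null replicate 3 in batch 2, and WT replicate 1 in both. The labels gave no age, and they did not say which samples came from separate animals, so the p-values measure only the spread between these samples. The study described the cells as primary cultures whose number of passages may vary.

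Imprinted genes are expressed mainly from the copy inherited from 1 parent, and the copy that is used is set by DNA methylation laid down in the germ line. In this region *Ndn*, *Magel2*, *Mkrn3*, *Peg12*, *Snrpn* with *Snurf*, and *Snhg14* are expressed from the paternal copy, under an imprinting centre at *Snrpn*. *Snhg14* is a very long noncoding RNA that runs antisense into *Ube3a* and silences the paternal copy of *Ube3a* in neurons. Loss of the paternal genes in the human counterpart of this region underlies Prader-Willi syndrome, and loss of maternal UBE3A underlies Angelman syndrome. *Smchd1* is a noncanonical member of the SMC family of chromosome proteins that takes part in the silencing of the inactive X chromosome and of some imprinted clusters. The counts per gene did not separate the parental copies.

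Total counts were 2.74 to 7.74 M (mega counts) per sample, and 3 counts, taken as the floor of detection, were 0.399 to 1.13 counts per M after TMM scaling (CPM). *Smchd1* itself was at 55.7 to 74.7 CPM in the WT and 12.8 to 18.4 CPM in the null samples, with a log2 fold change of -2.15 (SE 0.18, limma adjusted p = 0.00011), so the labels held in every library. The 6 neural stem cell markers (*Nes*, *Sox2*, *Fabp7*, *Vim*, *Slc1a3*, *Pax6*) were all detected, and their summed level was 8544 to 13333 CPM in WT and 8226 to 9754 CPM in null samples. WT replicate 4 stood apart in markers of other neural cells. Its 8 neuron markers summed to 193 CPM against 111 to 124 CPM in the other WT and 112 to 119 CPM in the null samples. The neuron excess lay mostly in *Elavl3* (58.1 CPM against 17.3 to 23.9 CPM in the other WT) and *Dcx* (36.2 against 3.15 to 12 CPM). *Tubb3*, *Snap25* and *Syt1* were also highest there among WT, while *Elavl4* and *Rbfox3* lay within the other WT samples and *Stmn2* below them. Its 4 astrocyte markers summed to 113 CPM against 28.6 to 37.1 CPM in the other WT and 31.5 to 37.9 CPM in the null samples. The 4 microglia markers summed to 0.787 to 2.06 CPM in WT and 0.375 to 0.799 CPM in null samples, the 5 fibroblast markers to at most 3.77 CPM and the 3 endothelium markers to at most 2.4 CPM in any sample, with *Lum* at 0 in all 7. The 6 oligodendrocyte lineage markers summed to 844 to 1163 CPM in WT and 884 to 916 CPM in null samples. In these bulk samples, fewer cells of a type cannot be told apart from less RNA per cell.

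The region falls into 3 stretches on the GRCm38 build. The first holds *Atp10a* (chr7:58656166-58829420, plus strand), *Ube3a* (chr7:59228750-59311536, plus strand), *Snhg14* (chr7:59307924-59975759, minus strand), *Snrpn* (chr7:59982495-60140219, minus strand) and *Snurf* (chr7:59995449-60005049, minus strand). The second begins 2.21 Mb beyond *Snrpn* and packs 4 genes of 1 exon each into 117.9 kb. These are *Ndn* (chr7:62346569-62350262, plus strand), *Magel2* (chr7:62377010-62381640, plus strand), *Mkrn3* (chr7:62417593-62420139, minus strand) and *Peg12* (chr7:62461871-62464510, minus strand). The gaps between them were 26.7, 36 and 41.7 kb. *Otud7a* (chr7:63444751-63759028, plus strand) lies 980 kb past *Peg12* in the flank. From the first base of *Atp10a* to the last of *Otud7a* the 10 genes span 5.1 Mb.

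The sequences before the starts of the 4 single-exon genes and of *Otud7a* are shown because 4 of these 5 genes were called higher in the null samples and the fifth, *Magel2*, lies among them with almost no reads. Each is the 250 bases before the RefSeq start on the gene's own strand, 5′ to 3′, in the GRCm38.p6 assembly, with CpG pairs, the sites of DNA methylation, in capitals. The windows are chr7:62348027-62348276 (plus) for *Ndn*, chr7:62376729-62376978 (plus) for *Magel2*, chr7:62420154-62420403 (minus) for *Mkrn3*, chr7:62464511-62464760 (minus) for *Peg12* and chr7:63444522-63444771 (plus) for *Otud7a*.
Ndn: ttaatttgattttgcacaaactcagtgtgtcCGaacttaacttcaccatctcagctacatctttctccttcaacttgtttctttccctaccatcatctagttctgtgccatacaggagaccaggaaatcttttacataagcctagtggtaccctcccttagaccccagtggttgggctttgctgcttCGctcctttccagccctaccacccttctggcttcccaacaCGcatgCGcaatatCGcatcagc
Magel2: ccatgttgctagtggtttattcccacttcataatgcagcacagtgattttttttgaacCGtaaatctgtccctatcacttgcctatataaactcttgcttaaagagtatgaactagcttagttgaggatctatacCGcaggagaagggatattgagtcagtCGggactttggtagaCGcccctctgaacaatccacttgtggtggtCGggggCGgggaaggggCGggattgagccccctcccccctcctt
Mkrn3: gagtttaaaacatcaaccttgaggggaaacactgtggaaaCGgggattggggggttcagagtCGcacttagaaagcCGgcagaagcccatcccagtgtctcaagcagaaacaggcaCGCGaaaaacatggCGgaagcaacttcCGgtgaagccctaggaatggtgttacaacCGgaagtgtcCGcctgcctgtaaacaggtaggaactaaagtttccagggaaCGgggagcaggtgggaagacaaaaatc
Peg12: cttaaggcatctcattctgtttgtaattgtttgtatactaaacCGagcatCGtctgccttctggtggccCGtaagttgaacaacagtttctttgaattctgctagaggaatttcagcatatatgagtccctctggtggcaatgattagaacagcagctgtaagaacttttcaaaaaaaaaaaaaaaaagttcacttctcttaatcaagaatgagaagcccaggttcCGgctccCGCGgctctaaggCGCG
Otud7a: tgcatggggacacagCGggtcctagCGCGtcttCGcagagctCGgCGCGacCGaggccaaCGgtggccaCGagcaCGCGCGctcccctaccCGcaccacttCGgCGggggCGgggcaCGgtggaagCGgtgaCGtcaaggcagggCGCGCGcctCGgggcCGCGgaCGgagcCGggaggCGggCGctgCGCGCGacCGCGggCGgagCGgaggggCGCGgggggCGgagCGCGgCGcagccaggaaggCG

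CpG content set *Otud7a* apart from the imprinted genes next to it. Counted over 300 bases (250 before and 50 after the start), the windows held 11 CpG pairs for *Ndn*, 10 for *Magel2*, 15 for *Mkrn3* and 12 for *Peg12*, against 51 for *Otud7a*. The median over 32851 RefSeq promoter windows was 7, with quartiles of 3 and 20, and 99.3% of windows had fewer than *Otud7a*. *Ube3a* had 29 and *Atp10a* 20, while the start of *Snurf*, which RefSeq shares with *Snrpn*, had 7 and the 3 upstream starts of *Snrpn* had 4, 3 and 2. The letters CGCATGCG, which read the same on both strands and form the core of the binding motif of the transcription factor NRF1, were searched in the same windows after the sequences had been seen. They occurred in 5 of the 11 distinct windows of the 10 genes and in 1.87% of all windows (615). The 5 were the window of *Ndn*, where they lie 23 bases before the start, and all 4 windows of *Snrpn*, 1 of them shared with *Snhg14* and 1 with *Snurf*. In the *Ndn* line above they are the letters CGcatgCG near the right end. In the 3 upstream windows of *Snrpn* the letters come shortly after the same run of bases, ctgcagcctggcaaacat. Those 3 windows are therefore not separate occurrences, and 5 of 11 does not measure an enrichment over the region. The RefSeq start of *Ndn* lies 1.71 kb downstream of the first base that Gencode gives.

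Of the 10 genes, 9 had at least 1 count and 8 passed the filter on low counts. *Ndn*, *Mkrn3*, *Peg12* and *Otud7a* were called higher in the null samples at an adjusted p under 0.25, the liberal threshold of the study, and only *Ndn* also passed 0.05. Over all 13305 genes tested, 0.474% were called higher (63), 0.609% lower (81) and 1.08% in either direction (144). No member was called lower by limma, edgeR or DESeq2, with 1, *Ube3a*, lower at an unadjusted limma p under 0.05. The 4 called genes were also the members whose null samples all lay above all WT samples in log-CPM, a pattern that 2.52% of the tested genes showed (335). Since *Ndn*, *Mkrn3* and *Peg12* were known to rise before the list was drawn up, the count of 4 is a description. The plot of CPM shows each gene in map order.

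**Figure D1:**
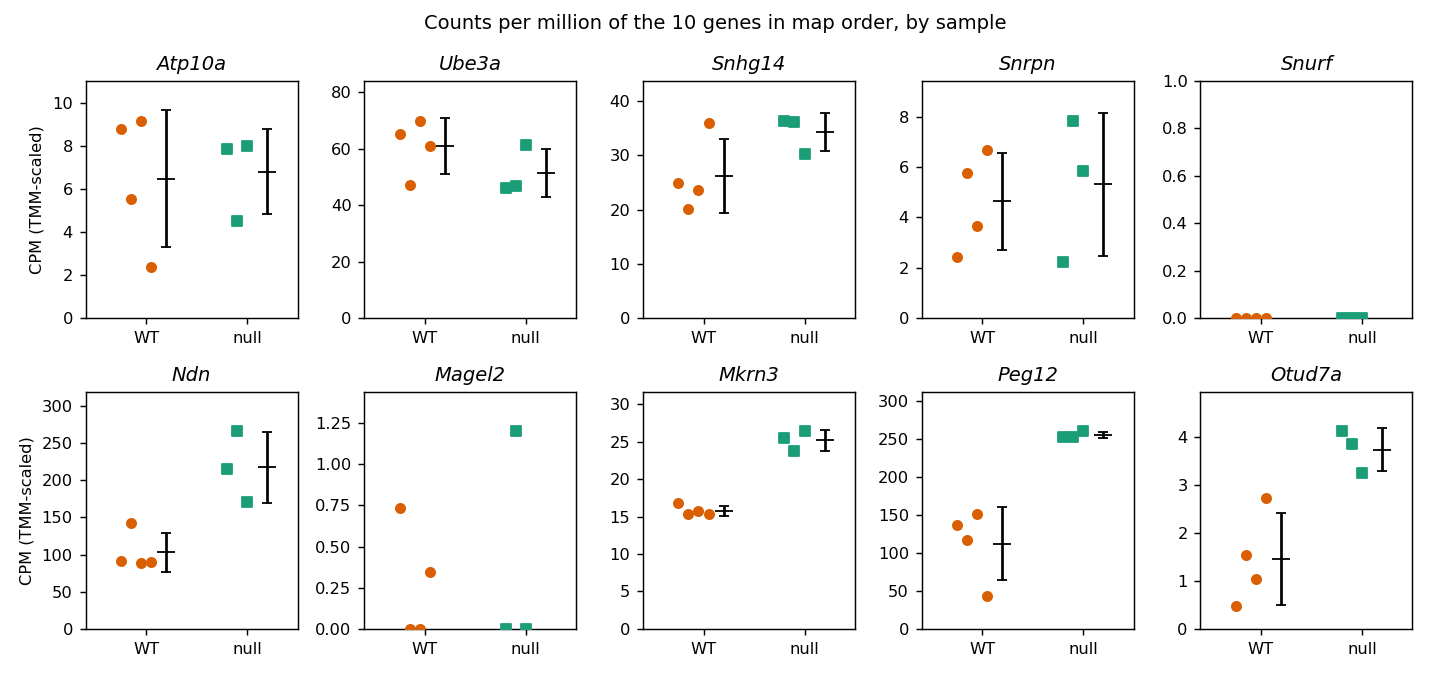
TMM-scaled counts per M (CPM, vertical axes from 0, scaled per gene) of the 10 genes in the 4 WT (circles) and 3 *Smchd1*-null samples (squares), with the mean and SD beside each group except for *Snurf* and *Magel2*. The groups did not overlap for *Ndn*, *Mkrn3*, *Peg12* and *Otud7a*, *Snurf* was at 0 in all 7 samples, and *Magel2* was at 0 in 4 of them.

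*Ndn* encodes necdin, a MAGE family protein of postmitotic neurons that restrains cell division. It had 373, 644, 336 and 525 counts in WT replicates 1 to 4 and 572, 1997 and 791 in null replicates 1 to 3. In CPM these were 91.1, 143, 88.1 and 90.0 in WT and 215, 266 and 171 in the null samples. The groups did not overlap, although WT replicate 2 lay nearer to null replicate 3 than to the other WT samples. The mean rose from 103 ± 26.7 CPM (SD, n = 4) to 217 ± 47.3 CPM (SD, n = 3), with a log2 fold change of 1.21 (SE 0.169, 95% interval 0.85 to 1.57, limma adjusted p = 0.0199). Within batch 1 the log-CPM difference of null minus WT was 0.74 and within batch 2 it was 0.94. WT replicate 1, which was in both batches, was left out of all within-batch differences.

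*Peg12*, also known as *Frat3*, is an intronless relative of the FRAT proteins, which bind the kinase GSK3 in the Wnt pathway. Its counts were 559, 528, 575 and 251 in WT and 674, 1902 and 1202 in the null samples, or 137, 117, 151 and 43.0 CPM against 253, 253 and 260 CPM. The null samples were close together, while WT replicate 4 was far below the other WT samples. The mean was 112 ± 47.9 CPM (SD, n = 4) in WT and 255 ± 4.12 CPM (SD, n = 3) in null samples, with a log2 fold change of 1.11 (SE 0.23, 95% interval 0.62 to 1.61, limma adjusted p = 0.136). The within-batch differences in log-CPM were 1.11 in batch 1 and 1.68 in batch 2. Without WT replicate 4, the sample with high summed neuron and astrocyte markers, the log2 fold change was 0.88 (limma adjusted p = 0.0346). Without WT replicate 1 it was 1.23, and the call was lost (limma adjusted p = 0.349).

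*Mkrn3* encodes a makorin RING finger protein, a ubiquitin ligase known as an inhibitor of the onset of puberty. It had 69, 69, 60 and 89 counts in WT and 68, 178 and 122 in null samples, that is 16.8, 15.3, 15.7 and 15.3 CPM against 25.5, 23.7 and 26.4 CPM. Both groups were tight and well apart. The mean rose from 15.8 ± 0.735 CPM (SD, n = 4) to 25.2 ± 1.39 CPM (SD, n = 3), with a log2 fold change of 0.63 (SE 0.168, 95% interval 0.27 to 0.99, limma adjusted p = 0.233). The within-batch differences were 0.67 and 0.75. This call was close to the threshold and was kept under 7 of the 19 other fits, with a positive log2 fold change of 0.58 to 0.71 in each of the 19. The 7 include the fits without WT replicate 2 and without null replicate 3. Those fits called 2924 of 12891 and 3153 of 13395 genes.

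*Magel2*, a MAGE protein that directs a ubiquitin ligase on endosomes in the hypothalamus, sits between *Ndn* and *Mkrn3* and was near the floor. It had 3, 0, 0 and 2 counts in WT and 0, 9 and 0 in null samples, 14 in all, and was not tested. All of its null counts came from the deepest library. The rise on either side of it could therefore not be looked for in *Magel2* at this depth.

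*Otud7a*, a deubiquitinase of the OTU family expressed in neurons, was the 1 called gene outside the imprinted cluster. It had 2, 7, 4 and 16 counts in WT and 11, 29 and 15 in null samples, 84 in all. In CPM these were 0.488, 1.55, 1.05 and 2.74 against 4.13, 3.86 and 3.25. All null samples were above all WT samples, with WT replicate 4 the closest. The mean was 1.46 ± 0.961 CPM (SD, n = 4) in WT and 3.75 ± 0.452 CPM (SD, n = 3) in null samples, with a log2 fold change of 1.72 (SE 0.462, 95% interval 0.74 to 2.71, limma adjusted p = 0.233). It passed the filter, near 2.18 CPM, through its null samples and WT replicate 4, so it had little room to enter the test without a difference. With every gene of at least 1 count in the fit, the adjusted p was 0.726. WT replicate 1 had fewer counts than the floor of 3. The call was kept under 5 of 18 other fits, with a positive log2 fold change of 1.19 to 1.96 in each of the 18. The 5 include the fits without WT replicate 2 and without null replicate 3, which called 2924 and 3153 genes.

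Of the tested members that were not called, *Snhg14*, the long noncoding RNA, had the smallest adjusted p. Its counts were 102, 91, 90 and 210 in WT and 97, 271 and 140 in null samples, or 24.9, 20.2, 23.6 and 36.0 CPM against 36.4, 36.1 and 30.3 CPM. The groups overlapped only through WT replicate 4, which was level with null replicates 1 and 2. The log2 fold change was 0.50 (SE 0.171, 95% interval 0.13 to 0.87, limma adjusted p = 0.294). Batches differed, with a log-CPM difference of 0.83 in batch 1 and 0.05 in batch 2, where WT replicate 4 lies. It passed the threshold in 5 of 19 other fits and was positive in all 19. The 5 include the fits without WT replicate 2 and without null replicate 3, which called 2924 and 3153 genes.

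*Ube3a* encodes the ubiquitin ligase E6-AP. It had 268, 212, 267 and 356 counts in WT and 123, 353 and 283 in null samples, that is 65.4, 47.1, 70.0 and 61.0 CPM against 46.2, 47.0 and 61.3 CPM. WT replicate 2 lay among the null samples and null replicate 3 among the WT samples. The log2 fold change was -0.36 (SE 0.153, 95% interval -0.68 to -0.03, limma adjusted p = 0.337), and within batches the difference was -0.02 and -0.09. The log2 fold change was negative in each of the 19 other fits and passed the threshold in 2 of them, without WT replicate 2 and without null replicate 3. Those fits called 2924 of 12891 and 3153 of 13395 genes, against 144 of 13305 in the reported fit. Exons of *Ube3a* share 1803 bases with the antisense *Snhg14*, 8.74% of its exon length, and 27.3% with any other gene. Strand use in the counting was not stated, so reads of a shared base cannot be assigned with certainty. If strand was not used, featureCounts would by default leave out reads that overlap both genes. The counts of *Ube3a* and *Snhg14* may then be too low.

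*Snrpn* encodes SmN, a neural form of the core spliceosomal protein SmB, and *Snurf* is a small protein read from the same bicistronic transcript. *Snrpn* had 10, 26, 14 and 39 counts in WT and 6, 59 and 27 in null samples, or 2.44, 5.77, 3.67 and 6.69 CPM against 2.25, 7.85 and 5.84 CPM. The ranges overlapped almost completely, and the log2 fold change was 0.42 (SE 0.464, 95% interval -0.57 to 1.42, limma adjusted p = 0.68). The within-batch differences of -0.40 and 0.22 had opposite signs. Of its exon bases 34.1% lie in exons of other genes, with *Gm38393*, a protein-coding gene model over the same stretch, sharing 589 bases. *Snurf* had 0 counts in all 7 samples. All 216 of its exon bases lie inside exons of both *Snrpn* and *Gm38393*, so a read of *Snurf* overlaps at least 1 other gene, and featureCounts by default leaves out reads that overlap more than 1 gene. A value of 0 here says nothing about the *Snurf* transcript, and the counts of *Snrpn* may be too low for the same reason.

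*Atp10a*, which encodes a phospholipid flippase of the P4-ATPase family, is the member farthest from *Ndn* on the other side. Its counts were 36, 25, 35 and 14 in WT and 21, 34 and 37 in null samples, that is 8.79, 5.55, 9.18 and 2.40 CPM against 7.88, 4.53 and 8.01 CPM. The groups overlapped, and WT replicate 4 was again the lowest. The log2 fold change was -0.20 (SE 0.377, 95% interval -1.0 to 0.61, limma adjusted p = 0.825), while the ratio of mean CPM, which gives each sample the same weight, was 1.05. Its sign was positive in 9 of the 19 other fits.

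In CPM, WT means were 112 for *Peg12*, 103 for *Ndn*, 60.9 for *Ube3a*, 26.2 for *Snhg14* and 15.8 for *Mkrn3*, with the other members lower. Divided by length, *Peg12* and *Ndn* stood far above the rest. In CPM per kb of exon, WT means were 42.4 for *Peg12*, 27.9 for *Ndn*, 6.2 for *Mkrn3*, 2.95 for *Ube3a*, 2.15 for *Snrpn*, 1.16 for *Atp10a*, 1.0 for *Snhg14*, 0.403 for *Otud7a* and 0.0581 for *Magel2*. The SDs (n = 4) of *Peg12* (18.1) and *Ndn* (7.22) left that pair undecided, and likewise those of *Ube3a* (0.48) and *Snrpn* (0.897) and of *Atp10a* (0.567) and *Snhg14* (0.262). In null samples the means were 96.8 ± 1.56 for *Peg12*, 58.8 ± 12.8 for *Ndn* and 9.9 ± 0.545 for *Mkrn3* (SD, n = 3), and 1.03 ± 0.125 for *Otud7a*. The order of the members was the same in both genotypes apart from *Snhg14* at 1.31 and *Atp10a* at 1.22, which changed places within their SDs. Division by length assumes that counts rise with exon length. The study reported that gene length was only weakly associated with expression in these reads. Long genes such as *Snhg14*, with 26093 exon bases in its model, therefore rank lower per kb than in CPM. Their full models may also not be present in polyadenylated RNA.

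The position of the members was then set against their neighbours. From *Tubgcp5* to *Tjp1* on chromosome 7 there were 352 other annotated genes, of which 103 had a count and 26 were tested. None was called by limma, edgeR or DESeq2, with 4 at an unadjusted limma p under 0.05, 2 higher and 2 lower. The 26 had a median log2 fold change of -0.03 (12 positive) beside 0.56 for the 8 tested members and 0.005 for all tested genes. The members' median rests on genes known to rise and on *Otud7a*, which entered through its null samples.

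The nearest tested gene before *Ndn* was *A330076H08Rik*, a noncoding transcript that starts at -0.364 Mb (minus for before) relative to *Ndn*. Its CPM were 12.7, 5.11, 8.65 and 18.2 in WT and 11.6, 10.6 and 18 in null samples, with a log2 fold change of 0.25 (SE 0.303, limma adjusted p = 0.71). The nearest beyond *Peg12* was the processed pseudogene *Atp5l-ps1*, 0.13 Mb from *Ndn*, at 11, 18, 14.2 and 16.1 CPM in WT and 13.5, 20.5 and 10.8 CPM in null samples. Its log2 fold change was 0.23 (SE 0.25, limma adjusted p = 0.676), and reads of a pseudogene may come from its parent gene. Both ranges overlapped widely, so the called stretch around *Ndn* and *Peg12* was bounded on each side by a tested gene that was not called.

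Outside the whole list, the nearest tested genes were the processed pseudogene *Gm5596* before *Atp10a*, with a log2 fold change of -0.03 (SE 0.256, limma adjusted p = 0.967), and *Klf13*, a zinc finger transcription factor beyond *Otud7a*. *Klf13* was at 46.9 to 64.6 CPM in WT and 55.6 to 59.1 CPM in null samples, with a log2 fold change of 0.08 (SE 0.138, limma adjusted p = 0.808). *Gm5898*, a processed pseudogene inside the span of *Otud7a*, was at 2.00 to 6.10 CPM in WT and 1.13 to 4.55 CPM in null samples (log2 fold change -0.93, SE 0.445, limma adjusted p = 0.369). The neighbours with the most counts were *Tjp1*, a tight junction scaffold (log2 fold change -0.47, SE 0.177, limma adjusted p = 0.307), and *Cyfip1*, part of the WAVE actin regulatory complex (log2 fold change -0.63, SE 0.216, limma adjusted p = 0.293). The plot along the region shows these genes by distance.

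**Figure D2:**
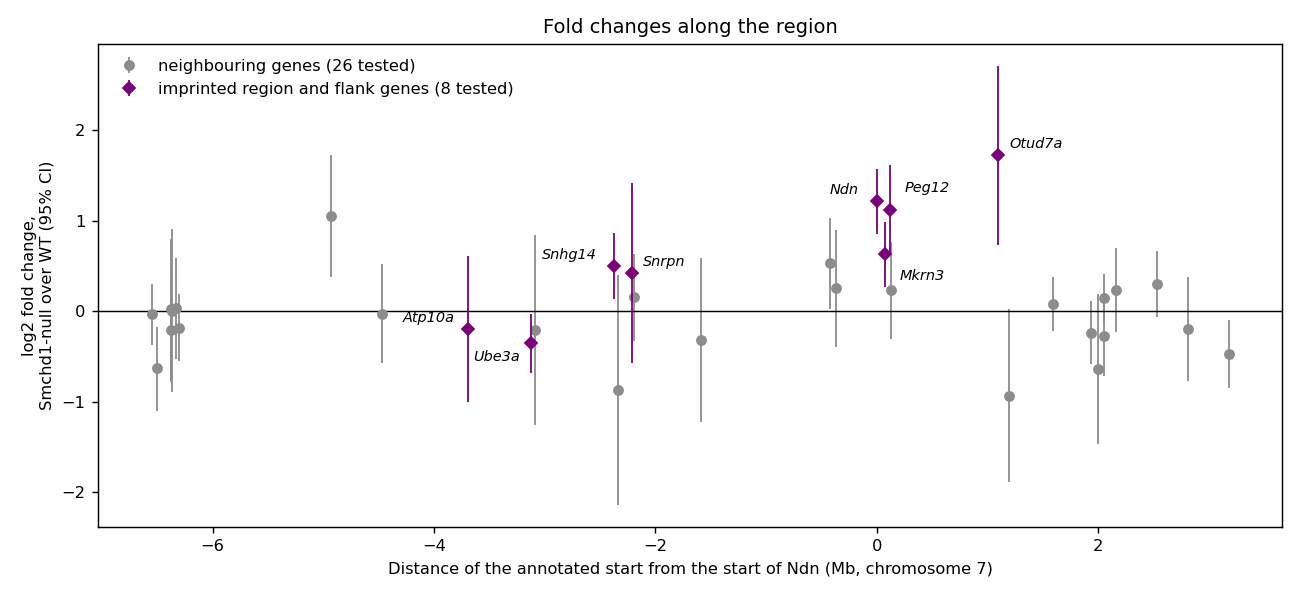
log2 fold change of *Smchd1*-null over WT with 95% intervals (vertical axis) for the 8 tested genes of the list (diamonds) and the 26 tested neighbours (grey circles) against the distance of the annotated start from that of *Ndn* in Mb on chromosome 7. *Ndn*, *Mkrn3* and *Peg12* stand together near 0 Mb, *Otud7a* follows past 1 Mb with a wide interval, and the nearest tested neighbours on each side, at 0.25 and 0.23, have intervals that include 0.

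A ratio within each sample does not depend on library scaling, so the mean log-CPM of *Ndn*, *Mkrn3* and *Peg12* was set against that of the other 5 tested members. These differences are given without a test, because the 3 genes were picked with their rise known. The 3 genes exceeded the mean of the other 5 by 2.85, 2.78, 2.59 and 1.88 log2 units in WT and by 3.33, 3.24 and 3.03 in null samples. The groups did not overlap, and the mean difference was 0.68 (2.53 ± 0.444, SD, n = 4, against 3.20 ± 0.151, SD, n = 3), with 0.50 in batch 1 and 0.80 in batch 2. Without WT replicate 4, the lowest, the difference was 0.46.

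Member by member, only the ratio to *Ube3a* separated the genotypes. It was -0.13, 0.44, -0.23 and -0.64 log2 units in WT and 1.27, 1.31 and 0.79 in null samples, a mean difference of 1.26 with 0.85 in batch 1 and 1.22 in batch 2. The mean differences were 0.91 against *Snrpn*, 0.85 against *Atp10a* and 0.62 against *Snhg14*, all with overlapping groups. Against *Snhg14* the difference was 0.008 in batch 1 and 1.07 in batch 2. Against *Otud7a* it was -0.26, with -0.32 in batch 1 and 0.36 in batch 2 and overlap between the groups.

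**Figure D3:**
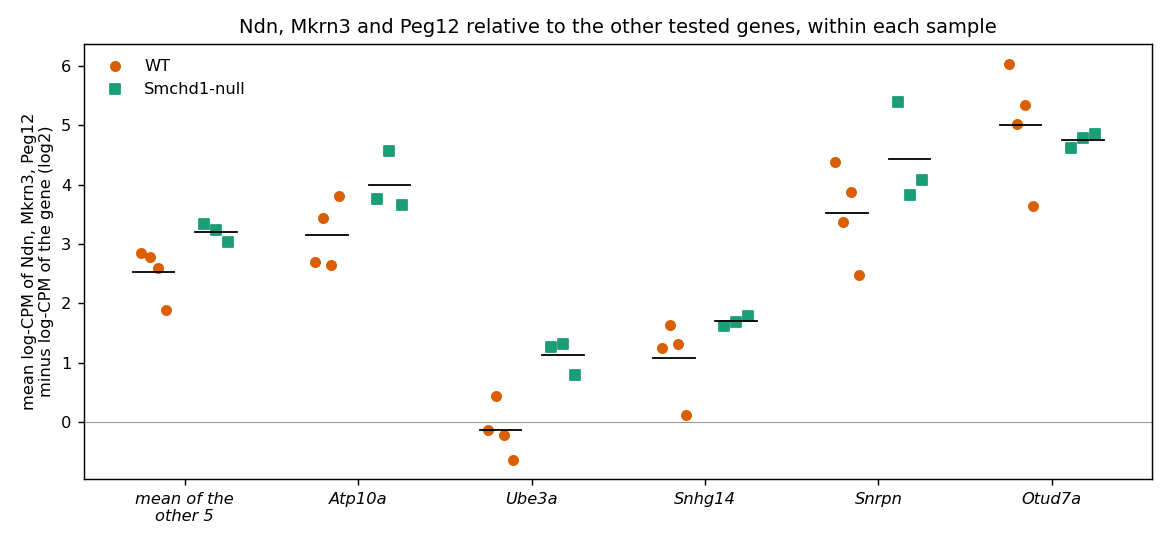
Mean log-CPM of *Ndn*, *Mkrn3* and *Peg12* minus the log-CPM of each other tested gene (vertical axis, log2 units) in every WT (circles) and *Smchd1*-null sample (squares), with group means as lines. Groups are apart for the mean of the other 5 (2.53 against 3.20) and for *Ube3a* (-0.14 against 1.12) and overlap for *Atp10a*, *Snhg14*, *Snrpn* and *Otud7a*.

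Across the 7 samples the 3 genes varied together, with Pearson's r of 0.82 for *Mkrn3* and *Ndn*, 0.81 for *Peg12* and *Mkrn3* and 0.72 for *Peg12* and *Ndn*. These are descriptions over the 7 samples that include the genotype difference itself. *Ndn* had r of 0.76 with *Otud7a* and -0.81 with *Ube3a*, and *Snhg14* had 0.77 with *Otud7a*. Outside the region, the tested genes most like the mean standardised log-CPM of the 3 over the 7 samples were *Zfp992* on chromosome 4 (r = 0.994), *9030624G23Rik* on chromosome 12 (0.992), *Cnnm4* on chromosome 1 (0.977), and *Tesc* (0.974) and *Gm16288* (0.966) on chromosome 5. In each of these 5 genes all null samples lay above all WT samples. This follows largely from the choice, since all 3 genes they were matched to had that pattern.

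The members were also set against genes of their families and complexes. *Nsmce3*, a MAGE gene at 2.53 Mb from *Ndn*, is among both these genes and the neighbours. Of 43 such genes, 38 were tested and none was called by limma, edgeR or DESeq2, with 1 higher and 3 lower at an unadjusted limma p under 0.05. Their median log2 fold change was 0.01 (range -0.77 to 0.55), beside 0.005 for all tested genes. The related genes with the most counts were *Maged1*, a MAGE relative of *Ndn* and *Magel2* (log2 fold change 0.14, SE 0.121, limma adjusted p = 0.597), and *Snrpb*, which encodes the SmB counterpart of *Snrpn* (0.13, SE 0.12, limma adjusted p = 0.63). The medians were 0.15 for the 2 FRAT genes related to *Peg12*, 0.02 for the 2 makorins related to *Mkrn3*, 0.14 for the 5 tested MAGE genes and -0.006 for the 6 tested Sm core genes. They were 0.06 for the 2 relatives of *Ube3a*, -0.05 for the 8 tested P4-ATPases, -0.006 for *Otud7b*, and -0.07 for the 12 partners of MAGEL2 in endosomal sorting.

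The strength of the calls was uneven across the 4 genes. *Ndn* stayed past the threshold in 17 of the 19 other fits, *Peg12* in 13, *Mkrn3* in 7 and *Otud7a* in 5 of 18. Each count includes the fits without WT replicate 2 and without null replicate 3, where 2924 of 12891 and 3153 of 13395 genes were called. The counts of *Ndn*, *Peg12* and *Mkrn3*, and that of *Snhg14*, also include the fits with a replicate block. The replicate numbers did not pair the samples, and WT replicate 4 was alone in its block. *Ndn* was no longer under 0.05 without WT replicate 1 (limma adjusted p = 0.152) or WT replicate 3 (limma adjusted p = 0.122), nor with voom without sample weights (limma adjusted p = 0.194), with all genes that had a count (limma adjusted p = 0.0587) or with edgeR (quasi-likelihood adjusted p = 0.23). Null replicates 1 and 2 carried the largest weights in the fit (2.03 and 1.83), and the calls were lost when either was left out. Whether this came from their weights or from having fewer null samples was not tested. Without null replicate 1 only 1 gene of all those tested passed the threshold and without null replicate 2 only 2, and no member was among them. The log2 fold changes stayed positive there, at 1.14 and 0.97 for *Ndn*, 1.13 and 1.13 for *Peg12*, 0.64 and 0.71 for *Mkrn3* and 1.62 and 1.61 for *Otud7a*. Without sample weights, and with edgeR or DESeq2, *Ndn* was the 1 member called. The number of members called was 1 without WT replicate 1 and 2 without WT replicate 3 or 4.

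**Figure D4:**
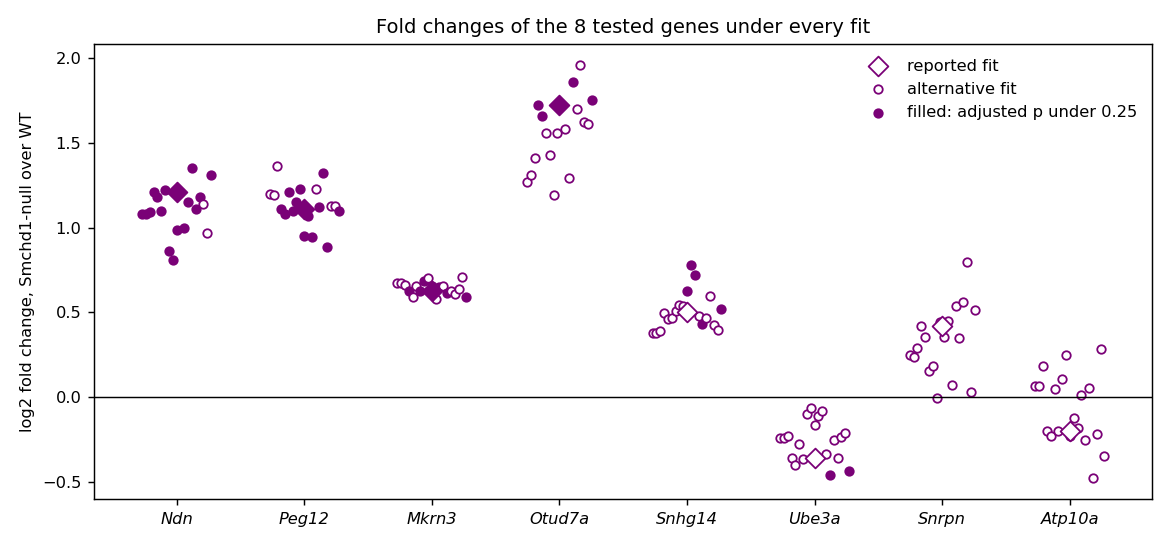
log2 fold change of *Smchd1*-null over WT (vertical axis) for the 8 tested genes in the reported fit (diamond) and in each other fit (circles), filled where the adjusted p was under 0.25. All values of *Ndn*, *Peg12*, *Mkrn3*, *Otud7a* and *Snhg14* are above 0 and all of *Ube3a* below 0, while those of *Atp10a* fall on both sides and 1 of *Snrpn* is just below 0.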

How the data were processed

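Gene-level counts of long reads were analysed for 4 WT and 3 *Smchd1*-null samples. The values are counts that the authors deposited, whole numbers per gene that are not normalised, with the exon length of each gene. Per the study's methods, reads were base-called with Guppy, aligned to mm10 with minimap2 (2.17 in the submitters' processing notes), and primary alignments were counted by featureCounts in long-read mode on Gencode M23. The authors summed the reads of WT replicate 1 over both batches. Symbols and coordinates came from Gencode M21, also GRCm38, with the version of the identifier ignored, and 55154 of 55335 identifiers matched. Promoter windows came from RefSeq on GRCm38.p6, and all 10 members had one.

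The fit followed the study: filterByExpr, TMM, voomWithQualityWeights with genotype as the only term, lmFit and eBayes on all 7 samples, two-sided. P-values were adjusted by Benjamini-Hochberg over all 13305 genes that passed (R 4.3.3, limma 3.58.1, edgeR 4.0.16). Adjusted p-values are from this limma fit. Batch was not a term. CPM used TMM-scaled library sizes, and log-CPM a prior count of 2. CPM per kb used the deposited length. Shared exon bases were counted from Gencode M21. The pipeline was tested on simulated counts. The 19 alternatives covered 2 other tools (edgeR's quasi-likelihood test and DESeq2 1.42.0), other scalings and filters, a batch covariate, a replicate block, removal of a trend with length and each sample left out.

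The members and lists were chosen with earlier results of these data known. The genes named were the 10 members, *Smchd1*, any neighbour or related gene past an adjusted p of 0.25, the nearest tested neighbours, the 2 with the most counts in each list, and the 5 genes most like *Ndn*, *Mkrn3* and *Peg12*. *Gm38393*, *Gm5898*, *Nsmce3* and *A230057D06Rik* were added after their values were seen. Total counts of 2.74 to 7.74 M per sample limit the precision of low genes, and no 2 libraries of a group agreed within sampling noise. The closest pair was null replicates 1 and 2. The chi-square per degree of freedom between their counts was 2.65, against 6.12 to 21.1 for the other pairs within a group.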

Additional observations from a re-analysis of the deposited data

Results flagged for a closer look

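Of 23 sets of 4 WT values that were examined, 4 had a highest or lowest sample whose distance from the nearest of the others, over the whole range, was above Dixon's critical value. About 1 set in 20 does so by chance, that is 1.15 of 23. The log-CPM of *Ndn* in WT replicate 2 was 7.16 against 6.47 to 6.52 in the other WT samples. The summed neuron markers of WT replicate 4 were 193 CPM against 111 to 124, and its summed astrocyte markers were 113 CPM against 28.6 to 37.1. The summed endothelium markers of WT replicate 2 were 0.222 CPM against 1.95 to 2.10, all near the floor of 3 counts. The part of these samples in the results was not tested beyond leaving each out. Without WT replicate 2 the log2 fold change of *Ndn* was 1.35, and without WT replicate 4 it was 1.18.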

How the results depend on the processing

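*Smchd1* stayed past the threshold in all 19 alternatives. The number of members called higher, 4 in the reported fit, was 1 with edgeR's quasi-likelihood test, with DESeq2 and with voom without sample weights. It was 2 with all genes that had a count and 2 with the batch covariate without the WT sample run in both batches. It was 0 to 5 when 1 sample was left out, with 0 without null replicate 1 or 2. Members called lower were 0 to 1 when 1 sample was left out, the 1 being *Ube3a*. Called neighbours, 0 in the reported fit, were 1 with at least 10 counts required in every sample and 1 with the length trend removed, alone or with the replicate block. They were 0 to 5 when 1 sample was left out. Called related genes were 1 with at least 10 counts in every sample and 0 to 7 when 1 sample was left out. Those high counts came without WT replicate 2 and without null replicate 3, where 2924 and 3153 of all genes were called against 144, 8 with edgeR and 32 with DESeq2. The cause was not tested.

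Directions changed for log2 fold changes and log2 ratios near 0. *Atp10a*, -0.20 in the reported fit, was 0.065 with edgeR, 0.065 with DESeq2, 0.19 without sample weights, 0.048 with all genes that had a count, 0.11 with the batch covariate and 0.25 with that covariate without WT replicate 1. Leaving out 1 sample gave *Atp10a* values of -0.48 to 0.28. *Snrpn* was -0.0016 with the batch covariate without WT replicate 1. The ratio of *Ndn*, *Mkrn3* and *Peg12* to *Otud7a* was 0.36 within batch 2 and, with 1 sample left out, -0.72 to 0.082.

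Samples with the same replicate number had correlated deviations of -0.038, 0.363 and 0.094, so the numbers do not pair the samples. With the replicate block, 129 genes were called, and 4 members were called higher, with *Snhg14* (log2 fold change 0.63) past the threshold and *Otud7a* (1.56) not. Under that block no member was called lower, no neighbour and no related gene was called, and the log2 ratio difference of the 3 genes to the other 5 was 0.46. Scaling by library size alone moved the median of all genes to -0.033. Depth limits *Magel2*, *Otud7a* and *Snrpn*, where a few reads decide a value.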

Other observations

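Of the genes most like *Ndn*, *Mkrn3* and *Peg12*, *Zfp992*, a zinc finger gene on chromosome 4, was at 1.95, 2.67, 2.10 and 1.03 CPM in WT and 7.13, 7.72 and 8.01 CPM in null samples, with a log2 fold change of 1.92 (SE 0.345, limma adjusted p = 0.0686). *9030624G23Rik* on chromosome 12 had 2, 4, 2 and 1 counts in WT and 10, 29 and 19 in null samples, and passed the filter through its null samples. *Tesc* also passed through its null samples, with every WT sample below the filter, near 2.18 CPM. *Zfp992* passed through its null samples and WT replicate 2. *Zfp992*, *9030624G23Rik* and *Tesc* therefore had little room to enter the test without a difference. *Cnnm4*, *Tesc* and *Gm16288* were not called, at adjusted p of 0.376, 0.293 and 0.39 (limma). In each of these 5 genes WT replicate 4 was the lowest in CPM, as it was for *Peg12*, whose profile was part of the one used to pick them.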
